A study of Macaca mulatta with 24 samples.

Results

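The genes described are those of the channels that release calcium from the endoplasmic reticulum, the pumps that refill it and the pair of proteins that open calcium entry when it runs low, measured in omental white adipose tissue of female rhesus macaques. The 10 genes, RYR1, RYR2, RYR3, ITPR1, ITPR2, ITPR3, ATP2A2, ATP2A3, STIM1 and ORAI1, were selected by name from the 32386 genes of the count table, and all 10 were among the 15207 genes that passed the filter on low counts. The list was drawn up with results of these animals in view. RYR1, RYR2 and RYR3 were known to be higher in the animals given testosterone with the Western-style diet. Their differences that involve those animals are therefore given as a description, without p values, and the calls among them support nothing.

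The RNA-seq data came from 24 animals in 4 groups of 6, biopsied in the third year of treatment. Controls (C) carried cholesterol implants and ate monkey chow, T animals carried testosterone implants and ate chow, WSD animals carried cholesterol implants and ate a high-fat Western-style diet, and T+WSD animals received both testosterone and the diet. All were young adult females. Their age is recorded as 4 years in the labels. The study's methods give a greater age at biopsy, so age was not used. The 24 were picked from larger groups as typical of them in fat mass and insulin, so they are not a random draw. Replicates are separate animals and are named here by the numbers in their labels, 1 to 24.

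Calcium stored in the endoplasmic reticulum leaves through ryanodine receptors, which open when calcium or a voltage sensor triggers them, and through receptors for inositol trisphosphate (IP3), which open after phospholipase C acts at the cell surface. SERCA pumps return the calcium to the store, and when the store empties STIM1 in its membrane gathers at the cell surface and opens the ORAI1 channel. RYR1 is the release channel of skeletal muscle and RYR2 that of the heart, both also transcribed elsewhere, while adipocytes use store release and refilling in lipid storage, hormone signalling and, in beige fat, heat production.

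Total counts per library ran from 6899185 to 28270776, and in 8 libraries, 2 in each group, 1 gene (ENSMMUG00000038258) took 9.92% to 54.7% of the counts, against at most 2.51% in the other 16. The 8 are called the library batch here, from this share alone. Levels below are CPM, counts scaled to a normalized library of 1000000. They are not divided by gene length, so no level is compared between genes. The adipocyte marker list summed to at least 2065 CPM in every library, the lowest being C replicate 1 (control median 13271). The biopsies differed in makeup. The mesothelial list summed to 2963 to 40066 CPM in C (median 7975) and 286 to 3285 CPM in T+WSD (median 1092). The highest sum was that of C replicate 1, of which 35030 CPM was 1 gene, ITLN1. Of the 10 tested genes of the list, 9 were called lower in T+WSD than in C. In bulk tissue, fewer cells of a type and less RNA per cell cannot be told apart.

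RYR2 is the release channel of heart muscle and the best separated of the 10 genes between T+WSD and the other groups. Its level in the controls was 1.86, 1.97, 4.97, 4.91, 8.95 and 1.39 CPM in replicates 1 to 6. In T+WSD it was 12.7, 11.02, 8.00, 18.9, 11.7 and 10.2 CPM in replicates 7 to 12. Every T+WSD animal but replicate 9 lay above every control, and only C replicate 5 reached into the T+WSD range. The T animals ran from 1.87 to 7.48 CPM around a median of 3.09, and the WSD animals from 0.956 to 3.91 CPM around a median of 2.49. All 6 T+WSD animals were above every T and every WSD animal, a separation in one direction or the other that held for 2.84% of all tested genes against WSD and 6.1% against T. The same separation from C, which RYR2 did not meet, held for 7.61% of tested genes.

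The mean of RYR2 was 12.1 ± 3.70 CPM in T+WSD, 4.12 ± 2.55 CPM in T, 4.01 ± 2.89 CPM in C and 2.56 ± 1.01 CPM in WSD (SD, n = 6 in each group). Thus T+WSD was highest, the means of C and T differed by far less than their SDs, and WSD had the lowest mean with a range inside that of C but for its lowest animal. The log2 difference of T+WSD was 1.57 (SE 0.43) from C, 2.24 (SE 0.45) from WSD and 1.54 (SE 0.43) from T. These 3 comparisons share the T+WSD animals and are not independent of each other. The interaction coefficient, the effect of testosterone on the diet minus its effect on chow, was 2.20 (SE 0.62) on the log2 scale for RYR2.

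**Figure D1:**
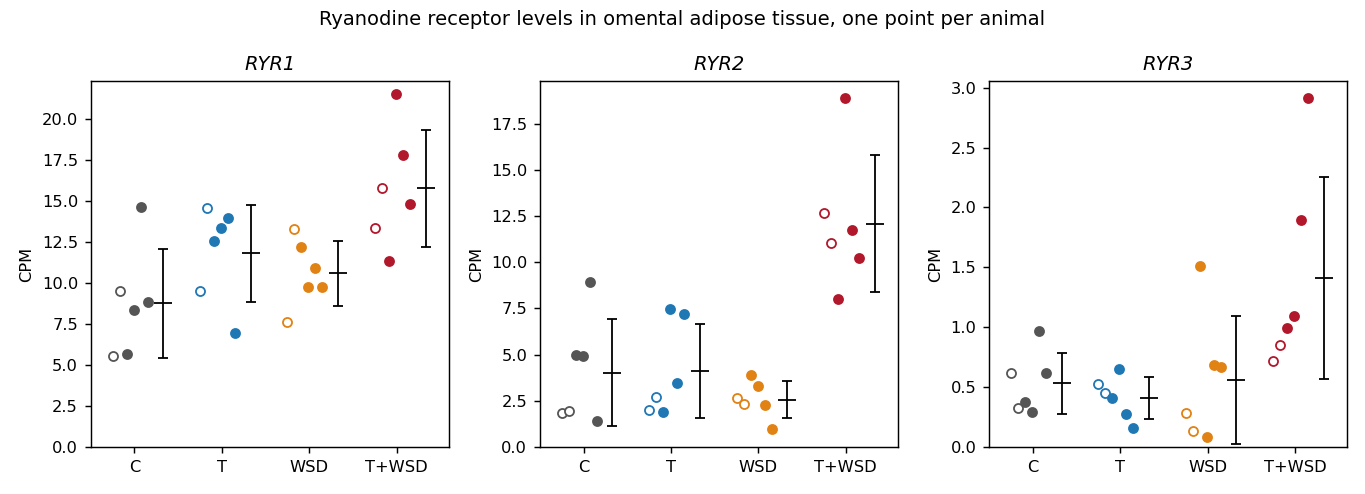
Levels of RYR1, RYR2 and RYR3 in CPM by group. Each point is 1 animal, open points are the 8 libraries of the batch, and the bar beside each group is its mean with 1 SD. For RYR2 the T+WSD animals lie between 8.00 and 18.9 CPM, above all T and WSD animals.

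Inside the library batch, with 2 libraries per group, RYR2 averaged 11.8 CPM in T+WSD and 1.91 CPM in C, a wider gap than outside it. The batch libraries gave 12.7 and 11.02 CPM in T+WSD, against 1.86 and 1.97 in the controls, 2.02 and 2.69 in the T animals, and 2.68 and 2.30 in the WSD animals. Among the 16 other libraries the mean was 5.06 CPM in C and 12.2 in T+WSD, and the log2 difference was 1.29 (SE 0.55).

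Neither testosterone nor the diet alone gave a detectable difference in RYR2. Against C, the log2 fold change was 0.034 (SE 0.43, 95% interval -0.85 to 0.92, adjusted p = 0.995) in T and -0.66 (SE 0.44, 95% interval -1.57 to 0.25, adjusted p = 0.421) in WSD. The controls spread from 1.39 to 8.95 CPM and the intervals are wide, and a p above the threshold does not show that the groups are alike.

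RYR1, whose protein is the release channel of the skeletal muscle triad, had a smaller difference over more reads. Its controls ran from 5.57 to 14.6 CPM around a median of 8.60, its T animals from 6.94 to 14.5 around 12.9, its WSD animals from 7.60 to 13.3 around 10.4, and its T+WSD animals from 11.3 to 21.5 around 15.3. The groups overlapped throughout. Of the T+WSD animals, 4 lay above every control, 5 above every WSD animal and 4 above every T animal. C replicate 5, at 14.6 CPM, was the highest control here as for RYR2.

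RYR1 averaged 15.8 ± 3.57 CPM in T+WSD, 11.8 ± 2.97 CPM in T, 10.6 ± 2.01 CPM in WSD and 8.76 ± 3.31 CPM in C (SD, n = 6 in each group). T+WSD differed from C by 0.85 (SE 0.22), from WSD by 0.58 (SE 0.22) and from T by 0.42 (SE 0.22) on the log2 scale. The interaction coefficient of RYR1 was 0.15 (SE 0.31). In T alone the log2 fold change of RYR1 against C was 0.43 (SE 0.22, adjusted p = 0.592) and in WSD alone 0.28 (SE 0.22, adjusted p = 0.514), so neither passed the test. The group means of RYR1 and RYR2 were ordered differently. The RYR1 means of T and WSD lay between those of C and T+WSD, whereas for RYR2 both lay near or below C. This contrast between the genes was not tested. Without C replicate 5, the RYR2 difference from C was 0.44 in T and -0.26 in WSD.

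RYR3, the third ryanodine receptor, was measured from few reads, 1 to 70 per library. Its controls ran from 0.289 to 0.966 CPM (median 0.496), its T animals from 0.156 to 0.653 (median 0.427), its WSD animals from 0.0789 to 1.51 (median 0.473) and its T+WSD animals from 0.717 to 2.91 (median 1.04). All 6 T+WSD animals were above every T animal and 4 were above every control, but WSD replicate 21, at 1.51 CPM, was above 4 of them. A full separation of T+WSD from T, in one direction or the other, held for 6.1% of all tested genes. The highest RYR3 level of all, 2.91 CPM, was that of T+WSD replicate 12. RYR3 averaged 1.41 ± 0.844 CPM in T+WSD, 0.558 ± 0.531 CPM in WSD, 0.532 ± 0.255 CPM in C and 0.410 ± 0.177 CPM in T (SD, n = 6 in each group).

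For RYR3 the log2 difference of T+WSD was 1.41 (SE 0.51) from C, 1.28 (SE 0.51) from WSD and 1.84 (SE 0.52) from T, and the interaction coefficient was 1.71 (SE 0.74). Against C, RYR3 differed by -0.43 (SE 0.53, adjusted p = 0.845) in T and 0.13 (SE 0.52, adjusted p = 0.922) in WSD. The latter turned to -0.45 without WSD replicate 21. Both standard errors exceed 0.5 on the log2 scale, and a p above the threshold does not show that the groups are alike.

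**Figure D2:**
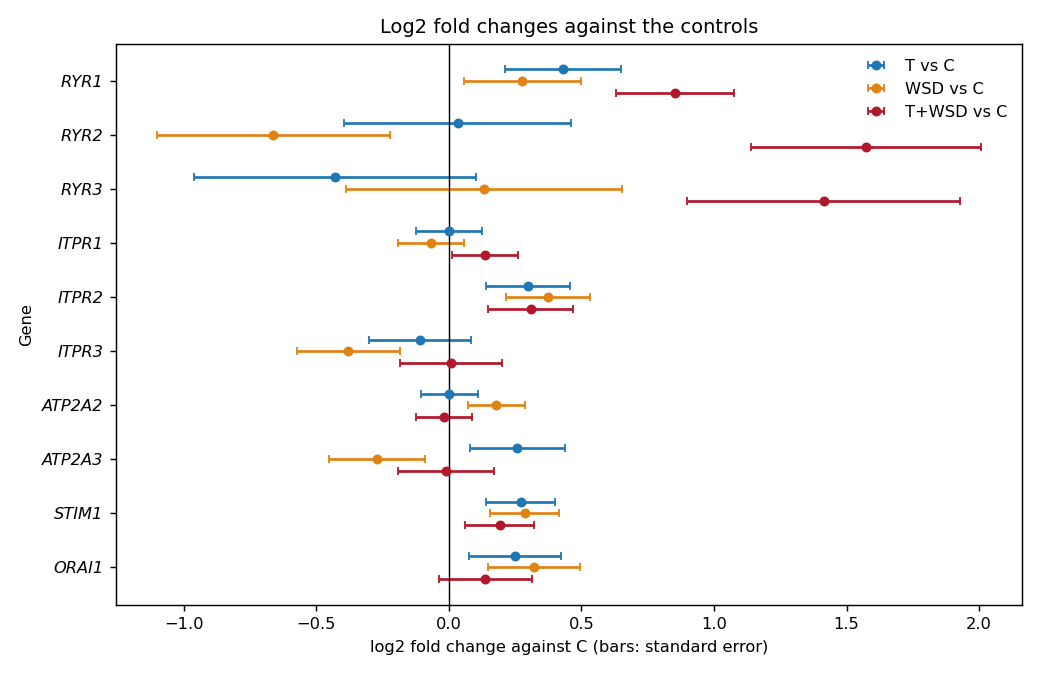
Log2 fold changes of the 10 genes in T, WSD and T+WSD against C from the fit across all 24 libraries, with bars of 1 standard error. The T+WSD values of RYR1, RYR2 and RYR3 lie at 0.85, 1.57 and 1.41, and those of the other 7 genes lie between -0.018 and 0.31.

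A gene was called in a pairwise comparison at an adjusted p under 0.05 in edgeR's quasi-likelihood test and a fold change over 1.5, and in the interaction at an adjusted p under 0.1. Between T+WSD and C, the called members were RYR1 and RYR2, 2 of the 10, and the share of all tested genes called there was 10%. RYR3 fell short in this fit and was called by DESeq2 and by edgeR on the 2 groups alone. Between T+WSD and WSD, RYR2 was called, with 0.815% of all tested genes, and between T+WSD and T, RYR2 and RYR3, with 3.77%. In the interaction edgeR called 0 of the 10 and 0.809% of all tested genes. At an unadjusted p under 0.05 the interaction had 2 of the 10, where 13.5% of all tested genes were, and DESeq2 called 1 (RYR2) there and 481 genes of the whole table. The choice of the receptors with these contrasts known fixed the outcome, so nothing is read from these counts.

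The differences were recomputed with each of the 24 animals left out in turn. Against C they ran from 0.74 to 1.07 for RYR1, from 1.39 to 1.98 for RYR2 and from 1.06 to 1.67 for RYR3 on the log2 scale, each largest without C replicate 5. Against WSD, RYR2 ran from 2.05 to 2.41, and against T from 1.36 to 1.79, while RYR3 against T ran from 1.49 to 2.05. RYR3 crossed the threshold against C without C replicate 5, WSD replicate 21 or WSD replicate 22. RYR2 missed it against WSD without T+WSD replicate 7 or 10 or WSD replicate 20 or 24, and RYR3 crossed it there without WSD replicate 21. Against T, RYR2 missed it in 10 of the 24 fits and RYR3 in 9, and the RYR2 interaction crossed it without WSD replicate 21, at 2.37. Among the 16 libraries outside the batch none of the 10 genes was called in any comparison with T+WSD, and the differences from C were 0.82 (SE 0.28) for RYR1, 1.29 (SE 0.55) for RYR2 and 1.63 (SE 0.65) for RYR3.

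Because RYR1 and RYR2 are release channels of striated muscle, genes of striated muscle were read beside them. The skeletal muscle list summed to 154 to 334 CPM in C and 418 to 849 CPM in T+WSD, every T+WSD animal above every control, and 4 of its 12 tested genes were called between these groups (3 higher and 1 lower in T+WSD). Much of that sum was titin, TTN, a giant sarcomere protein gene with levels of 52.6 to 157 CPM in C and 305 to 619 CPM in T+WSD. The listed genes did not all differ in the same direction. TNNT3, a troponin T gene, was 14.8 to 31.8 CPM in C and 21.5 to 54.3 CPM in T+WSD. TNNT1, another troponin T gene, had a median of 25.2 CPM in C and 5.30 CPM in T+WSD, and PYGM, muscle glycogen phosphorylase, 94.4 CPM and 68.0 CPM. ACTA1, skeletal muscle actin, was 0 to 4.17 CPM in C and 0 to 28.7 CPM in T+WSD, and CKM, muscle creatine kinase, was 0 in 5 of the 6 controls and 0 to 11.2 CPM in T+WSD.

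The genes of contraction varied between animals. The sum of ACTA1, CKM, NEB, MYBPC1 and MYBPC2 (chosen after the values were seen) exceeded 10 CPM in 6 libraries, 3 of T+WSD, 2 of T, 1 of C and 0 of WSD, and it was highest, at 101 CPM, in T+WSD replicate 10. That animal also had the highest RYR1, at 21.5 CPM, and the highest RYR2, at 18.9 CPM. T+WSD replicate 7 had 1.55 CPM of the 5 genes and 12.7 CPM of RYR2, more RYR2 than any animal of the other 3 groups. Its TTN, which is not among the 5 genes, was 306 CPM, above the 157 CPM of the highest control. T replicate 16, with 41.3 CPM of the 5 genes, had 7.48 CPM of RYR2 and 13.4 CPM of RYR1.

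**Figure D3:**
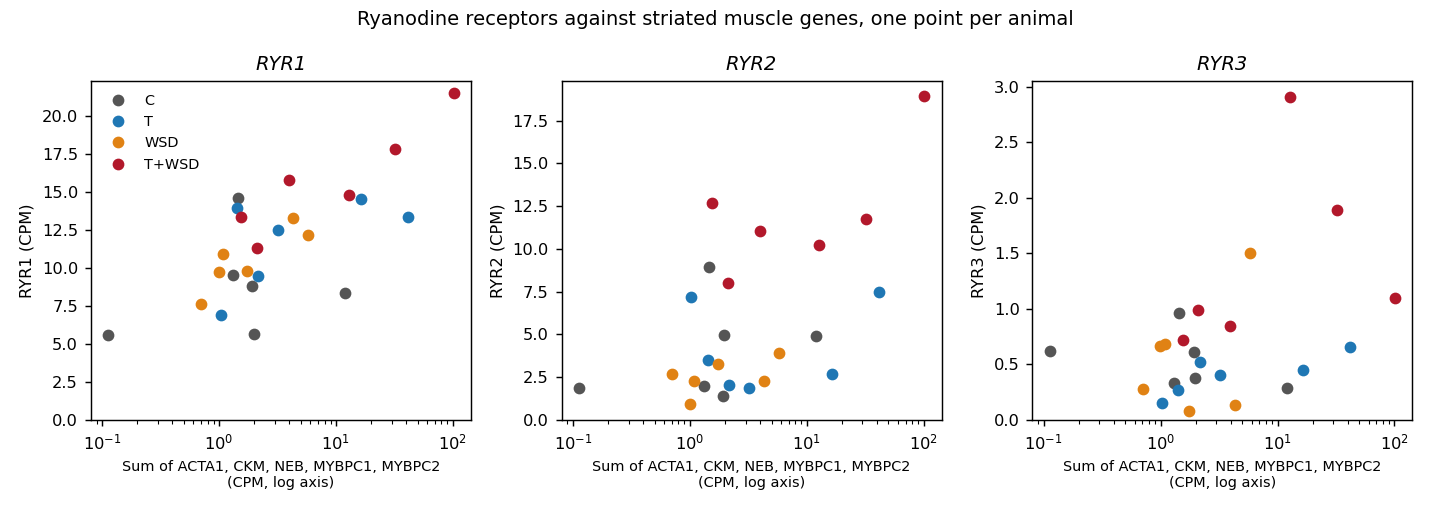
Levels of RYR1, RYR2 and RYR3 (CPM) against the summed level of 5 striated muscle genes, TTN not among them (CPM, log axis). Each point is 1 animal, coloured by group. T+WSD replicate 10, at 101 CPM of muscle genes, has the highest RYR1 and RYR2, while the 3 T+WSD animals under 10 CPM have 8.00 to 12.7 CPM of RYR2.

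Without the 6 libraries that exceeded 10 CPM, RYR2 in T+WSD differed from C by 1.44 (SE 0.57), RYR1 by 0.60 (SE 0.29) and RYR3 by 0.52 (SE 0.69) on the log2 scale, beside 1.57, 0.85 and 1.41 over all 24 libraries. None of the 10 genes was called against C in these libraries. The libraries kept were low by the sum of the 5 genes alone. In their T+WSD animals, replicates 7, 8 and 9, TTN was 306, 318 and 405 CPM. The part of striated muscle in the differences of RYR1, RYR2 and RYR3 was not tested. With the mean of the skeletal muscle list as a covariate, the differences from C were 0.65 (SE 0.22) for RYR1, 1.32 (SE 0.43) for RYR2 and 1.11 (SE 0.58) for RYR3. None of the 10 genes was called against C in this fit, which called 941 genes of the whole table there, and RYR2 had differences of 1.99 (SE 0.44) from WSD and 1.44 (SE 0.42) from T, both called.

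Other cell type lists were read in the same comparison, in which 10% of all tested genes were called. The endothelial list summed to 967 to 1651 CPM in C and 1812 to 2835 CPM in T+WSD, with 5 of 8 genes called higher, and the nerve and Schwann cell list to 34.8 to 62.5 and 82.4 to 151 CPM, with 2 of 6 called higher. The smooth muscle list ran from 913 to 1775 CPM in C and from 1648 to 2184 in T+WSD, with 2 of 10 called higher and 1 lower. The cardiac muscle list, of which 1 of 4 genes found could be tested, was at most 1.16 CPM in C and 15.6 CPM in T+WSD, with a median of 1.58 CPM in T+WSD. The tested gene, MYBPC3, of the heart's sarcomere, was called higher in T+WSD, by 3.76 on the log2 scale. Its T+WSD median was 1.02 CPM, and its highest value, 15.2 CPM, was that of replicate 10, the animal richest in striated muscle genes. The adipocyte list ran from 2065 to 17892 CPM in C and from 16448 to 24652 in T+WSD, with 1 of 9 called higher. The pericyte list ran from 255 to 567 CPM and from 404 to 561 (2 of 5 called higher), and the macrophage list from 196 to 1163 and from 539 to 1007 (1 of 8 called higher). The lists of T and NK cells, of B and plasma cells, and of platelets and mast cells stayed at or under 45.6, 7.72 and 35.7 CPM in both groups, and edgeR called none of their tested genes, with 0 at an unadjusted p under 0.05.

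With the mesothelial list as a covariate, the T+WSD difference from C was 0.37 (SE 0.30) for RYR1, 1.13 (SE 0.63) for RYR2 and 0.68 (SE 0.72) for RYR3. With the adipocyte list it was 0.54 (SE 0.23), 1.35 (SE 0.52) and 1.502 (SE 0.62). Neither fit called any of the 10 genes against C, and both called 0 genes of the whole table there, with 482 and 2440 genes at an unadjusted p under 0.05. The part of these cell types in the differences of RYR1, RYR2 and RYR3 was not tested.

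The IP3 receptors carry hormone-triggered release, and none of the 3 was called in any comparison. ITPR1 ran from 71.7 to 120 CPM in C (median 83.2), from 74.1 to 101 in T (91.3), from 61.8 to 110 in WSD (87.1) and from 86.8 to 112 in T+WSD (95.3). The groups overlapped almost entirely. Its log2 fold change against C was 0.00058 in T (95% interval -0.26 to 0.26), -0.068 in WSD (95% interval -0.33 to 0.19) and 0.14 in T+WSD (95% interval -0.12 to 0.39), so a change of ITPR1 beyond 1.5-fold lies outside all of these intervals.

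ITPR2 had its lowest mean in the controls. Its level ran from 160 to 221 CPM in C (median 178), from 204 to 289 in T (211), from 141 to 283 in WSD (249) and from 130 to 264 in T+WSD (244). In both diet groups, 5 of 6 animals lay above every control and 1 lay below every control, WSD replicate 23 at 141 CPM and T+WSD replicate 12 at 130 CPM. The ITPR2 difference from C was 0.30 (SE 0.16, adjusted p = 0.5995) in T, 0.37 (SE 0.16, adjusted p = 0.2202) in WSD and 0.31 (SE 0.16, adjusted p = 0.185) in T+WSD. None passed the test. T+WSD replicate 12, the lowest animal for ITPR2, was the highest for RYR3.

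ITPR3 differed between groups more in its spread than in its level. It ran from 51.2 to 103 CPM in C (median 78.0), from 56.6 to 100.5 in T (69.8) and from 41.2 to 91.4 in WSD (59.2), but only from 74.3 to 85.7 in T+WSD (80.5). The coefficient of variation over animals was 4.88% in T+WSD, against 31.6% in WSD, 25.6% in T and 25.6% in C. The difference in spread was not tested. The mean of ITPR3 in WSD was lower than in C by a log2 value of -0.38 (SE 0.19, adjusted p = 0.296) and that in T+WSD was level with C at 0.0084 (SE 0.19, adjusted p = 0.985). The interaction coefficient was 0.50 (SE 0.27, adjusted p = 0.445).

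Neither SERCA pump gene was called in any comparison. ATP2A2, which encodes SERCA2, the pump of most tissues, ran from 121 to 191 CPM in C (median 149.7), from 133 to 182 in T (146), from 141 to 202 in WSD (168) and from 130 to 166 in T+WSD (146). Its log2 fold change against C was 0.18 with the diet, 0.0022 with testosterone and -0.018 with both, each with an SE of 0.11. The 95% interval in T+WSD, -0.24 to 0.20, keeps ATP2A2 within 1.5-fold of the controls in either direction. Thus no difference was detectable in the gene of the common refilling pump.

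ATP2A3 encodes SERCA3, a pump of blood cells, endothelium and some epithelia. It ran from 12.7 to 24.4 CPM in C (median 19.3), from 14.6 to 32.7 in T (23.4), from 11.4 to 20.2 in WSD (16.6) and from 16.1 to 22.5 in T+WSD (18.5). T replicates 17 and 18 stood above every control, and WSD replicates 20 and 24 below every control. The log2 difference of ATP2A3 from C was 0.26 (SE 0.18) in T, -0.27 (SE 0.18) in WSD and -0.012 (SE 0.18) in T+WSD, with adjusted p = 0.698, 0.428 and 0.976. The T and WSD values had opposite signs, and their sum was that of T+WSD, with an interaction coefficient of -0.00066 (SE 0.26).

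The store-entry pair, STIM1 and ORAI1, had higher means in all 3 treated groups than in C, without passing the test in any. STIM1, the calcium sensor, ran from 32.8 to 63.6 CPM in C (median 45.6), from 47.0 to 66.0 in T (53.4), from 47.9 to 74.1 in WSD (52.9) and from 47.7 to 60.5 in T+WSD (51.5). Of the controls, 4 lay below every WSD animal and 3 below every T animal. The STIM1 difference from C was 0.27 (SE 0.13, adjusted p = 0.579) in T, 0.29 (SE 0.13, adjusted p = 0.248) in WSD and 0.19 (SE 0.13, adjusted p = 0.332) in T+WSD. The last turned to -0.15 with the mesothelial list as a covariate and to -0.017 with the adipocyte list, and the part of these cells was not tested.

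ORAI1, the channel that STIM1 opens, ran from 7.99 to 18.5 CPM in C (median 14.3), from 13.3 to 18.99 in T (16.5), from 12.3 to 24.3 in WSD (15.7) and from 12.7 to 19.2 in T+WSD (14.9). C replicate 1, which held the lowest ORAI1, also held the lowest STIM1, RYR1, ATP2A2 and ATP2A3 of the controls. Its biopsy was unlike the other controls in markers. It had the highest ITLN1, of the mesothelial list, at 35030 CPM beside a control median of 6398. It also had the lowest LEP, of the adipocyte list, at 4.39 CPM beside a control median of 272. The ORAI1 difference from C was 0.25 (SE 0.17, adjusted p = 0.696) in T, 0.32 (SE 0.17, adjusted p = 0.321) in WSD and 0.14 (SE 0.17, adjusted p = 0.634) in T+WSD. In T+WSD it turned to -0.18 with the mesothelial list as a covariate and to -0.11 with the adipocyte list. Without C replicate 1 the T+WSD difference was 0.039.

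**Figure D4:**
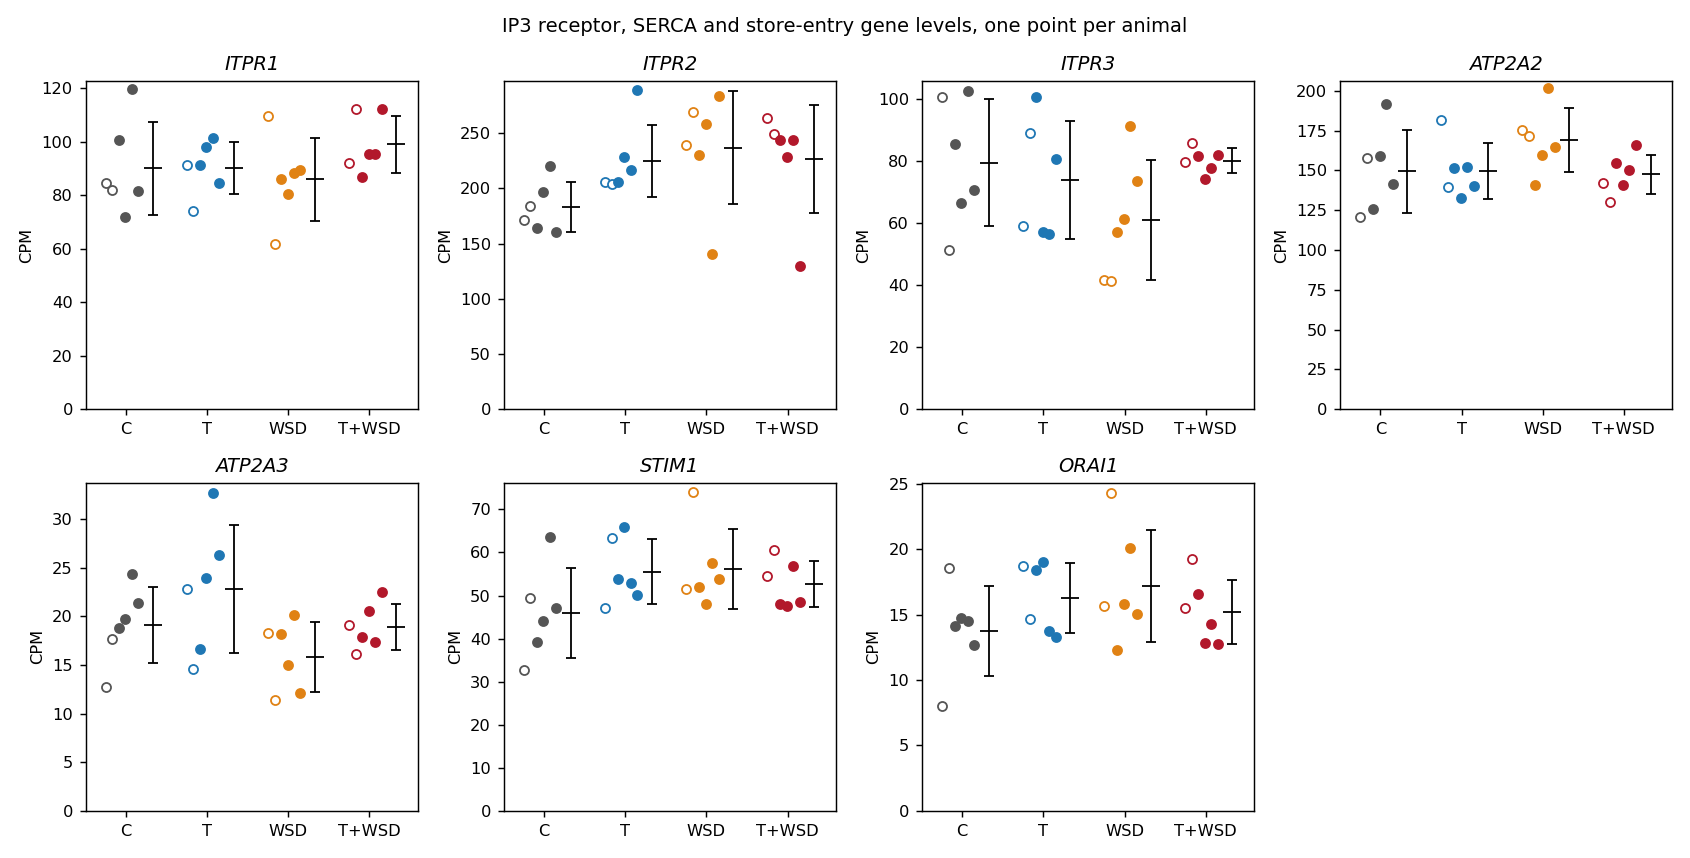
Levels of the IP3 receptor, SERCA and store-entry genes in CPM by group, with 1 point per animal, open points for the batch libraries and a bar of the mean with 1 SD. The groups overlap in all 7 panels, and ITPR3 in T+WSD lies within 74.3 to 85.7 CPM.

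Over the diet and testosterone contrasts that exclude T+WSD, 0 of the 10 genes were called by edgeR or by DESeq2. In the whole table, edgeR called 0% of all tested genes with the diet alone and 0% with testosterone alone, and DESeq2 called 238 and 7 genes. At an unadjusted p under 0.05 there were 2 in WSD against C (ITPR2 and STIM1) and 1 in T against C (STIM1), where 18.5% and 8.63% of all tested genes passed it. The lowest adjusted p of the 10 was 0.2202 with the diet and 0.579 with testosterone. For the 7 genes other than the ryanodine receptors, no comparison with the T+WSD animals reached the threshold either, with adjusted p from 0.185 to 0.985 against C, from 0.270 to 0.861 against WSD, from 0.359 to 0.980 against T and of at least 0.397 in the interaction. The median log2 difference of all 10 genes between T+WSD and C was 0.16, beside -0.042 over all tested genes. In WSD against C it was 0.16 beside -0.016, and in T against C 0.14 beside -0.017.

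The controls varied together over much of the list. C replicate 5 was the highest control for RYR1, RYR2, RYR3, ITPR1, ITPR2, ITPR3, ATP2A2, ATP2A3 and STIM1, 9 of the 10 genes. Without it, the RYR2 difference of WSD from C went from -0.66 to -0.26 and that of T from 0.034 to 0.44.

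The wider calcium handling list held 126 genes, of which 111 had an identifier and 103 were tested. Between T+WSD and C, 15 were called, 7 higher and 8 lower, or 14.6% beside the 10% of all tested genes, with a median log2 difference of -0.067. DESeq2 called 17. In WSD against C, edgeR called 0, with 18 at an unadjusted p under 0.05 where 18.5% of all tested genes passed it, and DESeq2 called 1 (LETM1, named after its value was seen). In T against C both called 0, with 7 unadjusted beside 8.63% of all tested genes. Between T+WSD and WSD edgeR called 0, with 18 unadjusted beside 20% of all tested genes, and DESeq2 called 4. Between T+WSD and T, edgeR called 2 (ASPH and CACNA2D1, both higher), or 1.94% beside the 3.77% of all tested genes, and DESeq2 called 5.

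**Figure D5:**
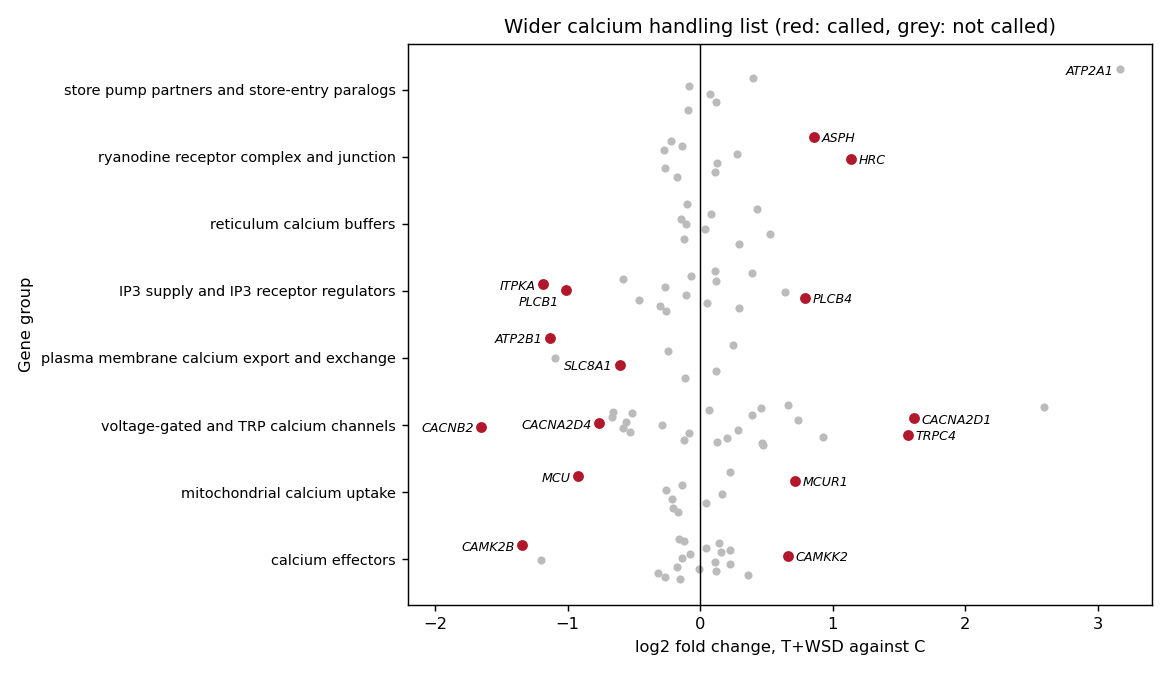
Log2 fold change between T+WSD and C for the 103 tested genes of the wider calcium handling list, 1 point per gene in rows by role, with genes called by edgeR in red and named. The 7 genes called higher and the 8 called lower are spread over 6 of the 8 roles, and ATP2A1 lies far right, not called by edgeR but called by DESeq2.

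Around the ryanodine receptor, 2 of 10 tested genes of its complex and junction rose in T+WSD against C, where 10% of all tested genes were called. The median log2 difference of the 10 was -0.013. ASPH, whose locus also encodes junctin, a protein of the release unit, was 182 to 481 CPM in C and 523 to 729 CPM in T+WSD, without overlap, and its log2 fold change was 0.86 (SE 0.26, adjusted p = 0.0280). Full separation of T+WSD from C, in one direction or the other, held for 7.61% of all tested genes. The counts are per gene, so junctin and the hydroxylase of the same locus cannot be told apart. HRC, a calcium-binding protein of the muscle store, was 0.8997 to 2.79 CPM in C and 2.83 to 7.35 CPM in T+WSD, and rose by 1.14 (SE 0.32, adjusted p = 0.0177).

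ATP2A1, the SERCA pump of fast skeletal muscle, varied widely between animals. It was 0.478, 0, 0.206, 23.5, 8.98 and 4.12 CPM in T+WSD replicates 7 to 12 and 0.123 to 2.60 CPM in C. The high animals were those with the most ACTA1 and CKM. Its log2 difference from C was 3.17 (SE 1.15, adjusted p = 0.0591 by edgeR), which DESeq2 called (3.20, adjusted p = 0.0181). The difference became -0.17 (SE 0.86) without the 6 libraries richest in striated muscle genes. STIM2 and SARAF, the second store sensor and a brake on store entry, differed from C in T+WSD by 0.12 (SE 0.086) and -0.084 (SE 0.079) and were not called. PLN and SLN, the small inhibitors of the pump, had no identifier under those symbols and were not analysed here.

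Among the genes of IP3 supply and IP3 receptor regulation, 3 of 16 tested were called between T+WSD and C, beside 10% of all tested genes. PLCB4 rose in T+WSD by 0.79 (SE 0.21, adjusted p = 0.0134). It was 34.6 to 66.1 CPM in C and 77.5 to 118 CPM in T+WSD. Such a separation from C, in one direction or the other, held for 7.61% of all tested genes. PLCB1, another phospholipase C beta, fell by 1.01 (SE 0.25, adjusted p = 0.00999), and ITPKA, a kinase that consumes IP3, fell by 1.19 (SE 0.38, adjusted p = 0.0362). Of the 7 tested genes of plasma membrane export and exchange, 2 were called. The pump ATP2B1 fell by 1.13 (SE 0.28, adjusted p = 0.0115). Every T+WSD animal, at 94.98 to 194 CPM, lay below every control, at 201 to 600 CPM. The exchanger SLC8A1 fell by 0.61 (SE 0.20, adjusted p = 0.0430), the smallest change of the 15 called.

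Of the 25 tested genes of plasma membrane channels, 4 were called between T+WSD and C, beside 10% of all tested genes. CACNA2D1, an auxiliary subunit of voltage-gated channels, rose by 1.61 (SE 0.32, adjusted p = 0.00393), from 48.2 to 71.5 CPM in C to 112 to 357 CPM in T+WSD. Full separation of T+WSD from C, in one direction or the other, held for 7.61% of all tested genes. CACNA2D1 stayed called in the 16 libraries outside the batch (1.35) and without the 6 libraries richest in striated muscle genes (1.79). It was the 1 gene of the list that was called in each of these fits. It was not called with the mesothelial list (0.76, SE 0.42) or the adipocyte list (1.36, SE 0.39) as a covariate. TRPC4, a receptor-operated channel, rose by 1.57 (SE 0.47, adjusted p = 0.0263). CACNB2, a channel beta subunit, fell by 1.65 (SE 0.51, adjusted p = 0.0290), and CACNA2D4 fell by 0.77 (SE 0.22, adjusted p = 0.0189). CACNB2 was 24.3 CPM in its highest control, and without C replicate 1 its difference was -0.81.

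In mitochondrial uptake, 2 of 10 tested genes were called between T+WSD and C, beside 10% of all tested genes. MCU, the pore of the calcium uniporter, fell by 0.92 (SE 0.31, adjusted p = 0.0429), while its regulator MCUR1 rose by 0.72 (SE 0.18, adjusted p = 0.0111). The MCU difference was -0.48 without C replicate 1, and its call was lost in 8 of the 24 fits that left out an animal, with the 2 groups alone, without the filter and with the batch as a covariate. VDAC2, an outer membrane channel, was the 1 gene of the list called in the interaction by edgeR, at -0.78 (SE 0.20, adjusted p = 0.0952). That is 0.971% of the list, beside 0.809% of all tested genes. VDAC2 was 238 to 412 CPM in WSD, 205 to 357 in T, 182 to 272 in C and 196 to 222 in T+WSD. Every T+WSD animal lay below every WSD animal, a separation in one direction or the other that held for 2.84% of all tested genes. Of the 20 tested calcium effectors, 2 were called between T+WSD and C, or 10%, the same share as over all tested genes. The kinase CAMKK2 rose by 0.66 (SE 0.15, adjusted p = 0.00777) and the kinase subunit CAMK2B fell by 1.34 (SE 0.38, adjusted p = 0.0186).

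Beside these values, the mesothelial list fell in 9 of 10 genes in the same comparison. With that list as a covariate 0 of the 103 genes were called in T+WSD against C, and CACNB2, CAMK2B, ATP2B1 and MCU, which fell, had differences of 0.14, 0.022, 0.025 and 0.12. The count was also 0 with the adipocyte list as a covariate, 1 outside the library batch, 1 without the 6 libraries richest in striated muscle genes, and 8 without C replicate 1. Of the other genes named, the call was lost in 7 of the 24 fits for ITPKA, in 5 for CACNB2, in 3 for ASPH and in 3 for TRPC4. The part of the mesothelial cells in these changes was not tested.

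The genes most like RYR2 over the 24 animals, among 12595 tested genes with a symbol, were MDM4, a regulator of p53 (Pearson r = 0.866, Spearman rho = 0.851 on log2 CPM), 1 identifier of the signal recognition particle RNA family (r = 0.846, rho = 0.828), SON, a splicing cofactor (r = 0.803, rho = 0.769), RTTN, a centriole protein (r = 0.798, rho = 0.814), and GPR21, an orphan receptor (r = 0.795, rho = 0.768). The RNA family has many near-identical copies, so its count is uncertain. The points share the 4 treatment groups, the library batch and depth, and these correlations are a description with no test.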

How the data were processed

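RNA was measured in omental adipose biopsies of 24 macaques, 6 per group, grouped by their GEO labels. The authors depleted ribosomal RNA and deposited raw counts per gene, 1 column per animal and not normalized, aligned to rheMac8. The submitters' processing notes name FastQC 0.11.5, Trimmomatic 0.36, STAR 2.5.2b and DESeq2 1.18.1. The counting tool and its strand setting are not given in the sources used here, so reads of overlapping and antisense genes cannot be told apart. All columns were used, and 0 were left out.

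Total counts ran from 6899185 to 28270776 per library, and no 2 libraries were identical (0 identical pairs). CPM are counts scaled to a TMM-normalized library of 1000000. Counts were tested with edgeR 4.0.16 in R 4.3.3 (quasi-likelihood F-test, robust, legacy, 1 fit of 4 groups), after a filter of at least 10 counts, with a total of at least 15, that kept 15207 of 32386 genes. Benjamini-Hochberg adjustment covered all genes tested, and p values are two-sided. SEs were taken from the log2 fold change and the F statistic, and 95% intervals from the SE. The fit was tested on simulated data. The alternatives were DESeq2 1.42.0, other size factors, no filter, the 2 groups alone, other thresholds, the library batch, totals without its gene, 4 marker lists as covariates, libraries low in striated muscle genes, and each animal left out. The adipocyte covariate and the striated muscle selection were chosen after seeing the data. That selection used the sum of ACTA1, CKM, NEB, MYBPC1 and MYBPC2, without TTN.

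The members, lists and alternatives were chosen with earlier results of these data known. Symbols came from a gene name table or the study's tables. The genes named were all members, ATP2A1, PLN, SLN, SARAF and STIM2, up to 15 of the calcium genes called in T+WSD against C, T+WSD against WSD or the interaction, by size, and the 5 genes most correlated with RYR2 (log2 CPM, prior count 2). SLC8A1 and LETM1 were added after their values were seen. Lists of pericytes, macrophages, lymphocytes, platelets and mast cells were also summed. No sequences or coordinates were used here. The bisulfite data were not used here.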

Additional observations from a re-analysis of the deposited data

Results flagged for a closer look

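In groups of 6, the highest or lowest animal was compared with the rest for the 10 genes, 40 groups in all, by Dixon's ratio at its 95% critical value, which chance exceeds in about 1 group in 20. In 3 groups an animal stood apart. ITPR2 in T had its highest value in replicate 18, at 289 CPM. ITPR2 in T+WSD had its lowest value in replicate 12, at 130 CPM. STIM1 in WSD had its highest value in replicate 20, at 74.1 CPM.

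The effect of testosterone on VDAC2 differed between the diets, with an interaction coefficient of -0.78 (SE 0.20, adjusted p = 0.0952 by edgeR, threshold 0.1). The call was lost in 18 of the 24 fits that left out 1 animal, with coefficients between -0.85 and -0.68.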

How the results depend on the processing

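Values were compared over 79 fold changes and 37 alternatives. Of these values, 2721 were counted as unchanged, 162 as losing the call, 11 as gaining it and 16 as changing sign. Some changes of sign in genes not called, such as that of RYR2 in T against C with an animal left out, are among the 2721. The RYR1, RYR2 and RYR3 differences of T+WSD from C were positive under every alternative. These receptors were chosen with that contrast known, so nothing is read from this.

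The 2 of the 10 genes called in T+WSD against C became 0 outside the library batch, 0 with the mesothelial, skeletal muscle or adipocyte list as a covariate, and 0 in libraries low in striated muscle genes. Against WSD, the 1 called became 0 outside the batch, 0 with the mesothelial or smooth muscle covariate and 0 in libraries low in striated muscle genes, and ranged from 0 to 2 with animals left out. Against T, the 2 called became 0 without the filter, outside the batch, with the mesothelial or adipocyte covariate and in libraries low in striated muscle genes, 1 with the skeletal muscle covariate, and 0 to 2 with animals left out. In the interaction the 0 called became 1 with DESeq2 and 0 to 1 with animals left out.

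For the wider calcium list, the 15 called in T+WSD against C became 1 outside the batch, 0 with the mesothelial or adipocyte covariate, 1 in libraries low in striated muscle genes, and 8 to 17 with animals left out. The 1 called in the interaction became 2 with DESeq2, 0 with the other size factors, without the filter, at an adjusted p under 0.05, outside the batch, with the mesothelial covariate and in libraries low in striated muscle genes, and 0 to 3 with animals left out. Fits outside the batch and in libraries low in striated muscle genes have 16 and 18 libraries. The cause of the other changes was not tested.

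The 16 values counted above as changes of sign were as follows. With the mesothelial covariate, T+WSD against C gave -0.15 for STIM1, -0.18 for ORAI1, 0.14 for CACNB2, 0.022 for CAMK2B, 0.025 for ATP2B1 and 0.12 for MCU. With the adipocyte covariate it gave -0.017 for STIM1 and -0.11 for ORAI1. With the smooth muscle covariate, T against C gave -0.14 for ITPR1 and -0.11 for ATP2A2. Outside the batch, T+WSD against T gave 0.099 for ATP2A2. In libraries low in striated muscle genes, T+WSD against T gave 0.083 for STIM1 and 0.083 for ORAI1, and T+WSD against C gave -0.17 for ATP2A1. With animals left out, RYR3 in WSD against C ran from -0.45 to 0.39, and SARAF in T+WSD against C from -0.13 to 0.0031. Other changes of sign in genes not called were counted as unchanged and are not listed in full. With animals left out, they included RYR2 in T against C (-0.22 to 0.44) and the RYR1 interaction coefficient (-0.070 to 0.26). ITPR1 in WSD against C (-0.15 to 0.031) also changed sign. So did ITPR3 (-0.061 to 0.11), ATP2A2 (-0.064 to 0.065) and ATP2A3 (-0.087 to 0.069) in T+WSD against C.

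Replicate numbers differ between the groups. No paired analysis was possible because the groups share no replicate number.

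RYR3 rested on 1 to 70 reads per library.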
